A study of Mus musculus with 4 samples.

Results

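Histone genes were examined in RNAseq of F123-ESCs, a male mouse embryonic stem cell line from a cross between the strains S129/Jae and CAST. All rows of the deposited expression table whose symbol begins with Hist1h, Hist2h, Hist3h, Hist4h, H2af, H3f3 or H1f were taken, which gave 14 of 24026 genes. Of these, 9 are Hist1 genes and 5 are H3f3, H2af or H1f genes. GENCODE M21 lists 91 genes with such symbols, and those outside the table were not analysed here. The rule itself refers to names and not to measured values, but it was set with earlier results of these data known.

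The 4 libraries, replicates 1 to 4, are untreated cells of one line and one genotype (S129/CAST). The comparison available is therefore that of the S129 allele with the CAST allele within a library. In this line the S129 chromosomes are maternal and the CAST chromosomes paternal. Strain and parent of origin thus cannot be told apart in any allele difference given here. The line was kept on inactivated mouse fibroblasts, moved to gelatin without feeders for 2 or more passages, and harvested about 48 h after plating. RNA was polyA-enriched and sequenced as stranded paired reads of 150 bases. The unit is RPKM, reads on a gene per kilobase of transcript scaled to the reads assigned to the allele, and reads that cover no SNP between the strains enter no value. The labels do not say whether the libraries come from separate cultures, so p-values measure the spread between these libraries, which may be technical.

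Histone genes fall into groups with different modes of expression. The clustered Hist genes encode the replication-dependent core histones, which are made in S phase, and most of their mRNAs end in a stem-loop instead of a polyA tail. This stem-loop is bound by Slbp and the end is cut by a complex with the U7 snRNP. Genes such as H3f3a and H3f3b, which encode the histone variant H3.3, and H1f0, which encodes a linker histone variant, have introns or long polyadenylated mRNAs and are transcribed outside S phase as well. Embryonic stem cells divide fast and spend much of their cycle in S phase.

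Reads assigned to either allele came to between 34120416 (replicate 4) and 56627972 (replicate 1) per library, as recovered from the steps between RPKM values. A single read on 1000 bases stands for 0.0348 to 0.0598 RPKM. Pluripotency markers were present, with 8 of 8 at 1 RPKM or more and a summed level of 7698 to 9330 RPKM per library. Most of this sum was Dppa5a, with a mean of 7111 RPKM, and the median over the markers was 105 RPKM. Of the feeder fibroblast markers 7 of 8 reached 1 RPKM, with a sum of 491 to 585 RPKM and a median of 8.56 RPKM. Most of that sum was Acta2 and Col1a2, with means of 340 and 166 RPKM. Of the primitive endoderm markers 3 of 6 reached 1 RPKM, with a sum of 5.85 to 6.80 RPKM and a median of 0.677 RPKM. The part of feeder RNA in the histone values was not tested.

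Of the 14 genes, 5 have the histone stem-loop in an annotated transcript, and all are Hist1 genes. The stem-loop was searched as GG, any 2 bases, CTTTT, any base, AG, any 2 bases and CC in direct succession. The search covered the last 100 bases, on the transcript strand, of GENCODE M21 transcripts of genes in the table, and no further genes. Of the 23995 genes of the table with a transcript sequence, 7, or 0.0292%, hold it. The other two genes are Mir6415 and Rab12. The sites are shown in the RNA's direction as DNA letters with the 16 bases of the motif in capitals, since most replication-dependent mRNAs end in this element. Positions are in mm10, and near-identical genes stand next to each other.
Hist1h2bp (chr13:21787918-21787943, + strand): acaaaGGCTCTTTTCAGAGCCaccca
Hist1h2ao (chr13:21810893-21810918, + strand): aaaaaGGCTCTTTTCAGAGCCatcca
Hist1h2ap (chr13:21833026-21833049, − strand): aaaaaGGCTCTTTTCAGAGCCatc
Hist1h4m (chr13:21812124-21812147, + strand): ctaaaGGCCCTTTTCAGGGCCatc
Hist1h4n (chr13:21831793-21831818, − strand): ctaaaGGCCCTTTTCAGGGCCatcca
The H2A and H2B genes share one form of the 16 bases and the H4 genes share another. For Hist1h2bp the site lies in the transcript of 469 bases with 1 exon, whereas the RPKM were computed with the length of the other transcript, of 621 bases and 2 exons, which has no stem-loop. Its second exon of 190 bases begins after an intron of 1132 bases, downstream of the stem-loop. The annotated transcript of Hist1h2an runs from the start codon to the stop codon only (130 codons before the stop), so no bases were there to search for a stem-loop beyond the coding part. The same holds for the 1-exon transcripts of Hist1h2bq and Hist1h2br (126 codons each), whose other transcripts did not match. A missing match in these genes is therefore limited by the annotation. None of the 5 H3f3, H2af and H1f genes matched.

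Of the 9 Hist1 genes, 8 lie together on chromosome 13 within 50.7 kb (chr13:21786826-21837530 in mm10). In this block 3 genes had high levels and 5 were listed at 0 in all 8 columns. The ninth, Hist1h2al (chr13:51202727-51203065), lies apart and is annotated as a processed pseudogene. H3f3a is on chromosome 1, H3f3b on chromosome 11 and H1f0 on chromosome 15, all protein-coding. H2afy3 on chromosome 15 and H3f3c on chromosome 2 are annotated as processed pseudogenes.

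**Figure D1:**
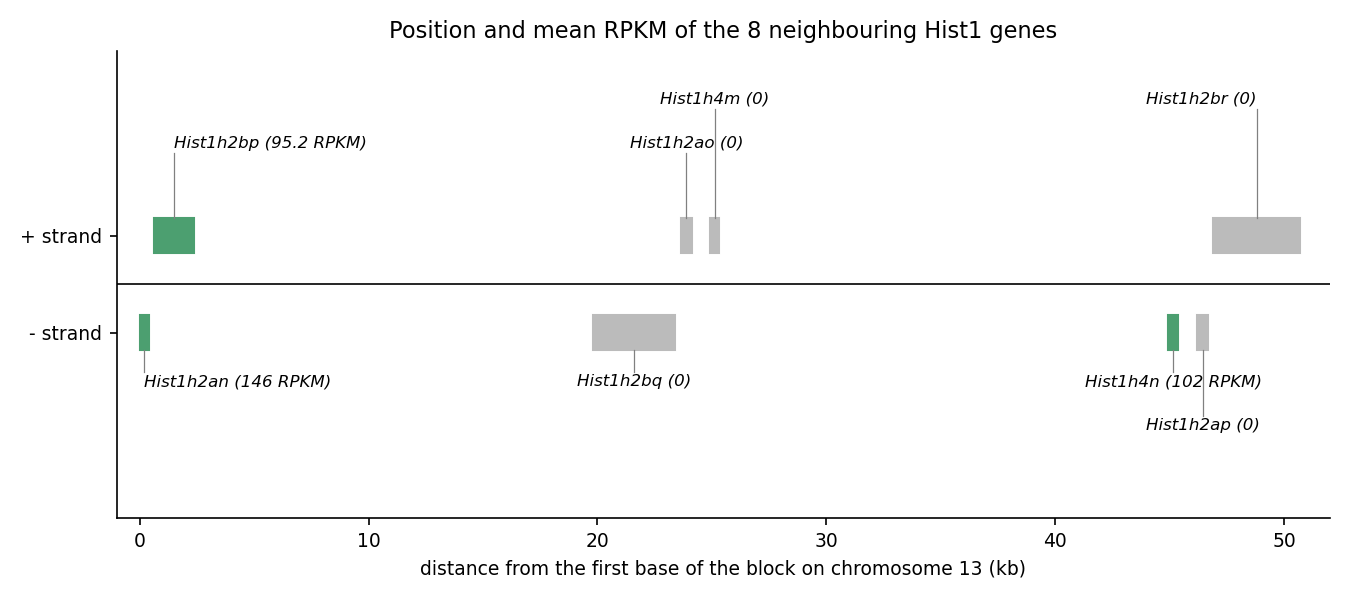
Position of the 8 neighbouring Hist1 genes, as distance in kb from the first base of the block, with genes of the + strand above the line and of the − strand below it and the mean RPKM of both alleles over 4 libraries in parentheses. Hist1h2an (146 RPKM), Hist1h2bp (95.2 RPKM) and Hist1h4n (102 RPKM), in green, are above 0 and the 5 grey genes are at 0.

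H3f3b had the highest level of the 14 histone genes in the table. It was followed by the H2A gene Hist1h2an, the H4 gene Hist1h4n and the H2B gene Hist1h2bp. As the mean of both alleles, H3f3b had 345, 348, 341 and 301 RPKM in replicates 1 to 4, or 334 ± 22.1 (SD, n = 4). Hist1h2an had 168, 117, 126 and 172 RPKM, or 146 ± 28.1 (SD, n = 4). Hist1h4n had 110, 81.0, 91.5 and 127 RPKM, or 102 ± 20.5 (SD, n = 4). H3f3b was above each of the Hist1 genes in every library, and the ranges of Hist1h2an and Hist1h4n overlapped. Hist1h2bp had 98.4, 87.6, 78.3 and 116 RPKM, or 95.2 ± 16.4 (SD, n = 4), and its range overlapped that of Hist1h4n. In each library Hist1h2an was the highest of these 3 Hist1 genes, by a ratio of 1.35 to 1.52 over Hist1h4n and 1.34 to 1.70 over Hist1h2bp. Among all genes of the table the level of H3f3b ranked 307, that of Hist1h2an 682, that of Hist1h4n 990 and that of Hist1h2bp 1066.

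H1f0, the linker histone variant, had 21.3, 22.4, 22.4 and 18.5 RPKM, or 21.2 ± 1.87 (SD, n = 4). This is below the levels of the 3 Hist1 genes in every library. The pseudogene Hist1h2al had 2.52 ± 0.160 RPKM (SD, n = 4) and H2afy3, whose symbol is that of the macroH2A family, had 1.06 ± 0.252 RPKM (SD, n = 4), on 164 and 224 reads in all columns together. H3f3a had 0.254, 0.240, 0.183 and 0.289 RPKM, or 0.241 ± 0.0443 (SD, n = 4), from 11 to 24 reads per column. The exact 95% Poisson intervals of its libraries together ran from 0.118 to 0.418 RPKM and cover counting error only, because without molecular identifiers several reads may stem from 1 molecule. Of the pair of genes for H3.3, the deposited values thus came almost wholly from H3f3b. Values of different genes also depend on how many SNPs lie in each, which was not analysed here, so their order is one of the deposited RPKM.

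The remaining 6 genes, Hist1h2ao, Hist1h2ap, Hist1h2bq, Hist1h2br, Hist1h4m and H3f3c, were listed at 0 in all 8 columns. With 3 reads as the limit that a count of 0 allows, this corresponds to under 0.0517 to 0.446 RPKM in a single column, depending on gene length and depth. The limit is one for reads that could be counted to the gene and an allele, not for the transcript. Genes at 0 made up 42.9% of the histone genes and 15.7% of all genes. At 1 RPKM or more were 7 of 14, or 50.0%, against 49.7% of all genes, with a median of 0.650 RPKM over the histone genes and 0.975 RPKM over all genes.

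**Figure D2:**
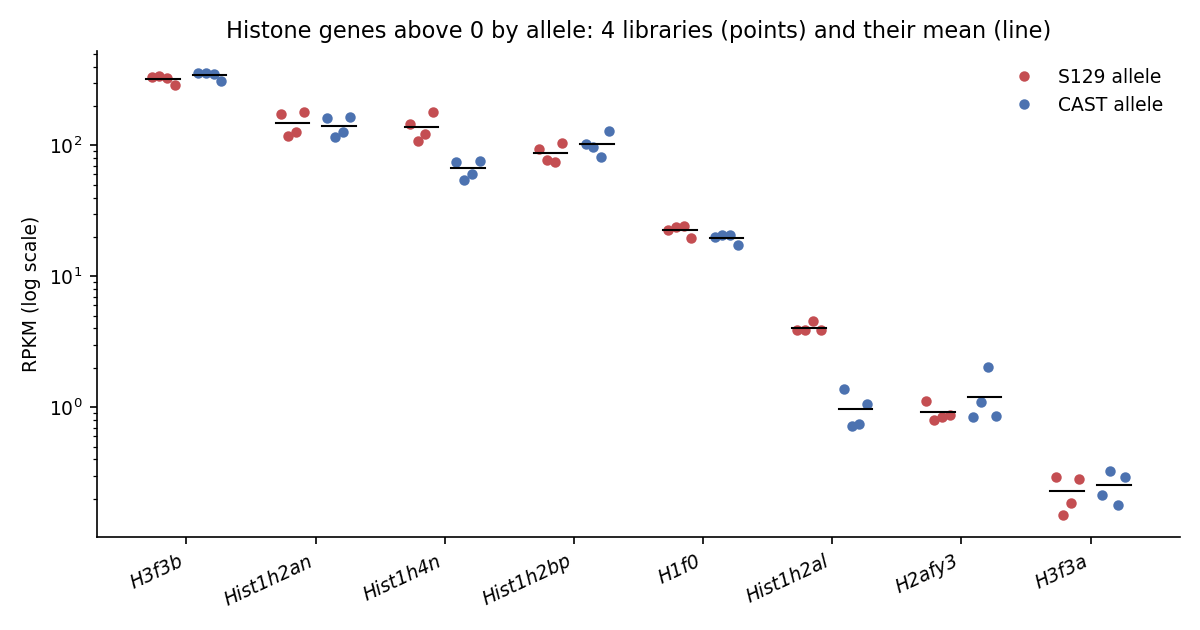
RPKM on a log scale of the 8 histone genes above 0, with S129 in red and CAST in blue, a point for each of 4 libraries and a line at their mean. H3f3b lies at the top with a mean of 334 RPKM and H3f3a at the bottom with 0.241 RPKM, and the alleles stand apart without overlap in Hist1h4n and Hist1h2al.

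The 5 Hist1 genes at 0 are those whose transcripts recur most in other genes. For each gene, every window of 150 bases, the length of a read, in the transcript listed first in GENCODE M21 was looked up on either strand in the transcripts of all other genes. The share of windows found elsewhere was 99.8% in Hist1h2br, 91.7% in Hist1h2bq, 91.5% in Hist1h2ao, 91.0% in Hist1h2ap and 85.8% in Hist1h4m. It was lower in the Hist1 genes with reads, at 77.2% in Hist1h4n, 72.5% in Hist1h2an, 26.7% in Hist1h2bp and 0% in Hist1h2al. H3f3c, which is also at 0, had 48.5%, mostly with H3f3a. H3f3a had 22.8%, for the most part with a gene that overlaps it on the opposite strand, and H1f0, H3f3b and H2afy3 had at most 0.735%. The part of this share in the low value of H3f3a was not tested.

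Over 22673 genes of the table with a transcript of at least 150 bases, the share of genes at 0 was larger where more windows were shared. It was 10.4% of the 17060 genes without such a window, 14.0% of 3839 genes with above 0 to 25% of windows shared, 27.5% of 1305 genes with above 25 to 80%, and 72.3% of 469 genes with above 80%. The 5 Hist1 genes at 0 all belong to the last class. How reads that match several genes were counted, and whether strand was used for overlapping genes, is not given in the sources used here. The RPKM of Hist1h4n and Hist1h2an, with most windows shared, are therefore uncertain, and the part of shared sequence in the values was not tested.

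**Figure D3:**
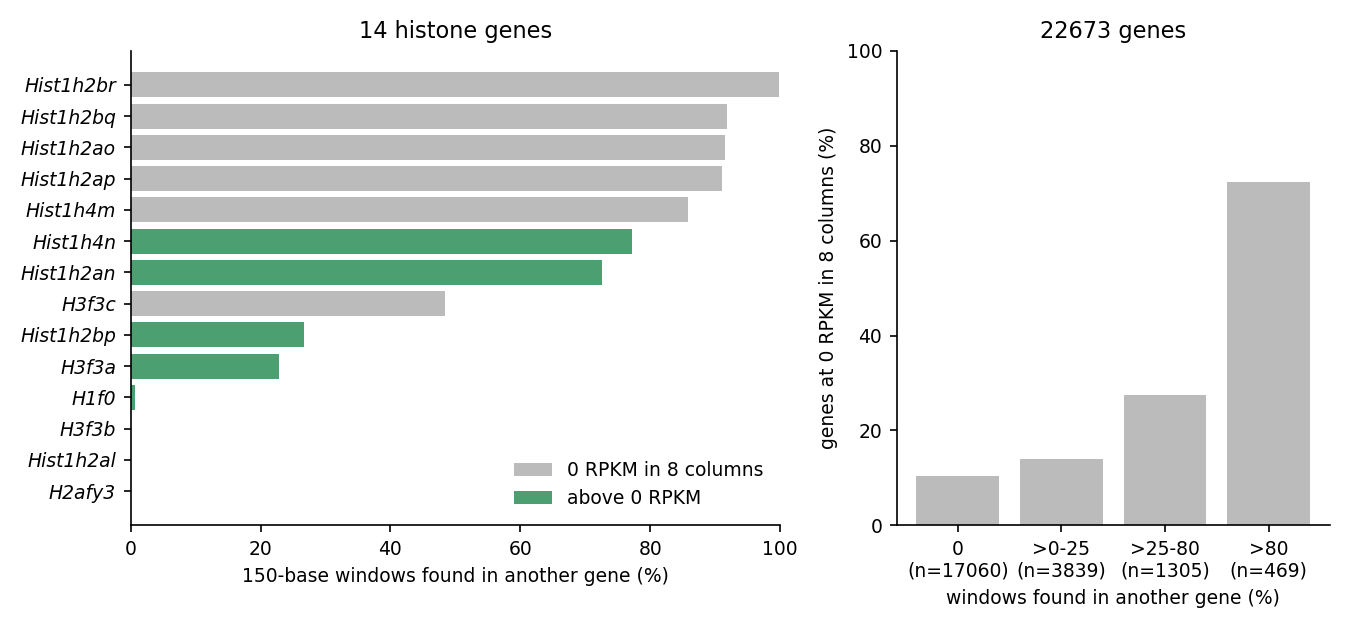
Left, share of 150-base windows of each histone gene's transcript that occur in another gene, in percent, with genes at 0 RPKM in grey and genes above 0 in green. Right, percentage of genes at 0 RPKM in all 8 columns among 22673 genes grouped by the same share, which is 72.3% in the class above 80%, where the 5 Hist1 genes at 0 lie.

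The near-identical pairs show how close these genes are. Hist1h2ap and Hist1h2ao were identical over all 452 aligned bases, and Hist1h2bq and Hist1h2br over all 1254, and all 4 genes were at 0. Hist1h4n and Hist1h4m differed at 1 of 402 aligned bases, with 28 more bases at the 3′ end of Hist1h4n, and only Hist1h4n had reads, 8245 in all columns. The difference also falls in the RefSeq promoter windows (GRCm38.p6), which span 250 bases before to 50 bases after the start, and it is the only difference over 299 compared bases. Counted from 1 at the 5′ end of the Hist1h4n window it is A287G, with the base of Hist1h4n first. It is shown in capitals in the 30 bases around it, just before the start codon, because it is the only mismatch between the aligned transcripts. How reads that match both genes were counted is not known. Whether this base has a part in the reads of Hist1h4n and the 0 of Hist1h4m was not tested.
Hist1h4n (chr13:21832148-21832177, − strand): gtacagttttgtcttcAtcatgtctggtcg
Hist1h4m (chr13:21811765-21811794, + strand): gtacagttttgtcttcGtcatgtctggtcg
Hist1h2an, which had reads, was identical to Hist1h2ao at 388 of 393 aligned bases. H3f3a and H3f3b, which encode the same protein, were identical at 67.5% of aligned bases, and no stretch longer than 23 bases was shared.

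Hist1h2an and Hist1h2bp are a divergent pair with 242 bases between them, and their RefSeq promoter windows share 261 bases. The window of Hist1h2bp (chr13:21787238-21787537, + strand) is printed since both genes had high levels and both were higher in replicates 1 and 4 than in replicates 2 and 3. Capitals mark CCAAT boxes (CCAAT or ATTGG) and TATAA motifs (TATAA or TTATA), which do not overlap here.
Hist1h2bp promoter: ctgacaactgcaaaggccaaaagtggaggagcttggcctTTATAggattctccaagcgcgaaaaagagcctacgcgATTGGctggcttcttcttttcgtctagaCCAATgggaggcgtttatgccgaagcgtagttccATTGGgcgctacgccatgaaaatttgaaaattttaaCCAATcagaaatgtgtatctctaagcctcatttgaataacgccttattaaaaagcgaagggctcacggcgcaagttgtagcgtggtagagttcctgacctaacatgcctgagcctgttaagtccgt
The window holds 4 CCAAT boxes, as do those of Hist1h2an and H3f3b, and 3.37% of all 32851 promoter windows hold 3 or more. Windows were at hand for 12 of the 14 genes, not for H2afy3 and Hist1h2al. On either strand, 8 of 12 held CCAAT, against 37.4% of all windows, and 10 of 12 held TATAA, against 24.9%. Hist1h2ao, Hist1h2ap, Hist1h2bq and Hist1h2br, at 0 RPKM, held 3 CCAAT boxes each. Both H4 genes held 2 TATAA motifs and no CCAAT, and H1f0 held neither. The windows of Hist1h2ao and Hist1h2bq overlap, as do those of Hist1h2ap and Hist1h2br, so that the same letters are counted for both genes of each divergent pair. A motif match is a description of the letters and says nothing on binding.

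In the RPKM as deposited, the 3 abundant Hist1 genes were all higher in replicates 1 and 4 than in replicates 2 and 3 and had a larger spread between libraries than most genes of their level. The summed Hist1 level was 379, 288, 298 and 418 RPKM in replicates 1 to 4, with a mean of 346 ± 62.9 (SD, n = 4) and a coefficient of variation (CV) of 18.2%. The summed level of the H3f3, H2af and H1f genes was 367, 371, 365 and 320 RPKM, with a CV of 6.74%, and of 0.848% without replicate 4. Libraries were also rescaled to one sum of RPKM over all genes, in which the RNA Rmrp alone had 88767.5 to 102204 RPKM per library. The CVs were then closer, at 13.8% for the Hist1 sum and 10.1% for the other genes. H3f3b and H1f0 were lowest in replicate 4, with ratios to their mean of 0.901 and 0.873, where protein-coding genes over 1500 bases had a median ratio of 0.907. The Hist1 share of the summed histone RPKM was thus 50.7%, 43.7%, 44.9% and 56.6%. That sum covers the 14 genes of the table, whereas GENCODE M21 lists 91 with such symbols.

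The CV was 20.0% for Hist1h4n, the largest of the Hist1 genes, 19.3% for Hist1h2an and 17.2% for Hist1h2bp. It was larger than that of 98.2% of 1421 genes, 96.8% of 1026 genes and 96.3% of 1514 genes within 2-fold of the level of each. Counting error alone gives a CV of 1.64% to 2.38% per library for these genes, from 1763 to 3731 reads of both alleles. Hist1h2al, with the smallest CV of 6.35%, did not follow the others, but its 29 to 51 reads per library give a counting error of 14.0% to 18.6%. The ratio of Hist1h2an to Hist1h4n had a CV of 5.57% and that of Hist1h2an to Hist1h2bp one of 10.3%, whereas the ratio of Hist1h4n to H3f3b had a CV of 26.7% and that of H1f0 to H3f3b one of 3.31%.

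Replicate 1 had the most and replicate 4 the fewest reads, and the part of depth in the Hist1 values was not tested. Protein-coding genes of 300 to 700 bases with at least 10 RPKM had median ratios to their mean of 0.981, 1.03, 1.03 and 0.959 in replicates 1 to 4 (733 genes), and genes over 1500 bases of 0.976, 1.05, 1.06 and 0.907 (3307 genes). Replicates 1 and 4 were both above 2 and 3 in 23.3% of the 733 short genes and in 12.0% of 4476 longer ones, a count chosen after the values were seen. The RNA subunit of RNase P, Rpph1, which has no polyA tail, had 290, 191, 192 and 369 RPKM, with ratios to its mean of 1.12, 0.732, 0.737 and 1.42. Rmrp, the related RNA of RNase MRP, had ratios of 1.09, 0.983, 0.977 and 0.949 and did not divide the libraries in this way. Among the cell type markers and the 3′ end and chaperone genes given below, Dppa5a, Asf1a, Cenpa and Lsm10 had this order. The other genes of those lists did not. Dppa5a had 7564, 6496, 6225 and 8159 RPKM, and Cenpa had 131, 120, 121 and 152 RPKM. What part the polyA enrichment of each library or the share of cells in S phase has in the Hist1 values was not tested.

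**Figure D4:**
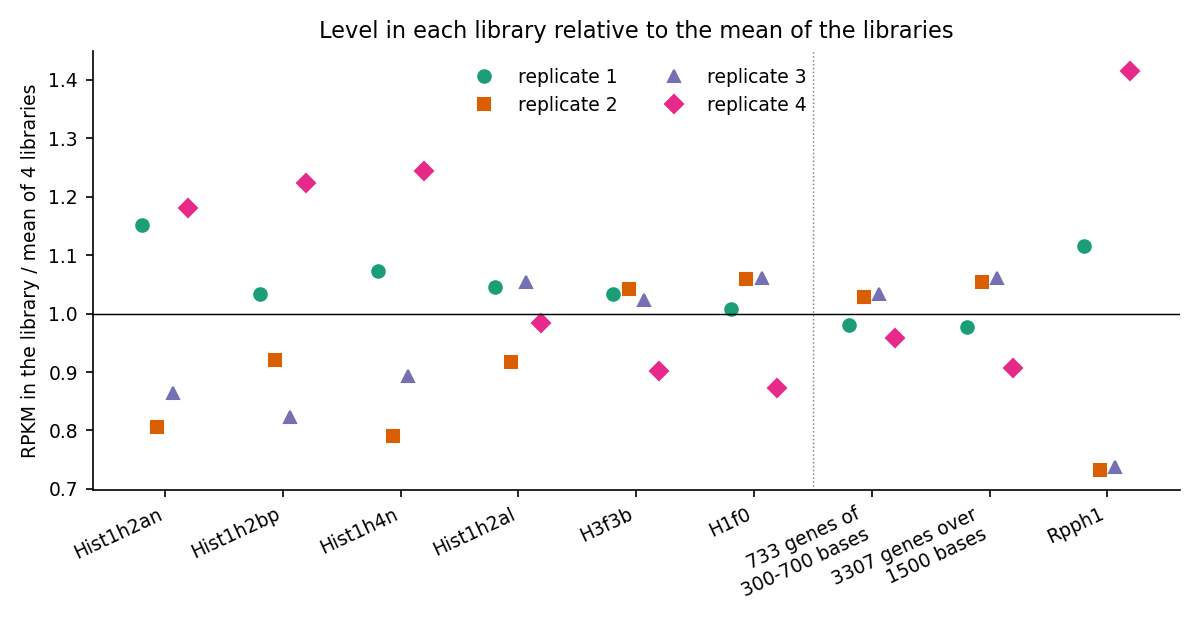
Level in each library divided by the mean of the 4 libraries, with a symbol for each replicate, for 6 histone genes and, right of the dotted line, the median ratio of short and of long protein-coding genes and the ratio of Rpph1. Hist1h2an, Hist1h2bp, Hist1h4n and Rpph1 are above 1 in replicates 1 and 4 and below 1 in replicates 2 and 3, unlike H3f3b, H1f0 and the gene classes. Dppa5a, with the same pattern, and Rmrp, without it, are not plotted.

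Between the alleles, Hist1h4n and the pseudogene Hist1h2al were higher on S129 and Hist1h2an did not pass the test. Alleles were compared by limma on log2(RPKM+0.1), as the S129 minus the CAST value of the same library. The fit held 13341 genes whose alleles together reached 1 RPKM, with Benjamini-Hochberg adjustment. Of the 14 histone genes, 7 passed this minimum. Among these, 3 were called higher on S129, where the share over all genes tested is 31.4%, and 2 higher on CAST, where it is 31.3%, so the number of calls was near that of other genes. At an absolute log2 difference of at least 1, 2 of 7 were higher on S129, against 9.55% of all genes tested and 6.29% of the 12869 autosomal ones. The S129 copy is the only X chromosome of these male cells, so the first of these shares includes X-linked genes. Of all calls 50.0% were higher on S129, and 62.6% with the autosomal sums of both alleles made equal. Those sums are of RPKM, so genes at very high levels weigh most in them.

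Hist1h4n, which encodes histone H4, had 145, 107, 122.7 and 179 RPKM on S129 and 75.3, 54.7, 60.3 and 76.2 RPKM on CAST in replicates 1 to 4. The lowest S129 value was above the highest CAST value. The log2 difference was 1.04 (standard error 0.0604, 95% interval 0.878 to 1.20, adjusted p = 2.6e-04 from limma, S129 higher in 4 of 4 libraries). Of its reads in a library, 66.5% to 70.9% were S129 reads, with exact binomial intervals together from 64.6% to 73.0%. The median difference of the other tested genes within 10 Mb was 0.0021 on the log2 scale, and the call remained in every alternative computed. The alleles of the near-identical Hist1h4m were both at 0, and whether the alleles differ in how reads divide between these genes was not tested.

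Hist1h2al had 3.90, 3.91, 4.57 and 3.90 RPKM on S129 and 1.38, 0.719, 0.749 and 1.06 RPKM on CAST. Here too the alleles did not overlap. The log2 difference was 1.99 (standard error 0.195, 95% interval 1.47 to 2.52, adjusted p = 0.00127 from limma, S129 higher in 4 of 4 libraries). It rests on 23 to 38 S129 reads and 6 to 13 CAST reads per library. The call held in every alternative, with 1.37 as its smallest value, at a pseudocount of 1 RPKM.

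Hist1h2bp had 93.7, 77.5, 75.0 and 104 RPKM on S129 and 103, 97.7, 81.7 and 128.8 RPKM on CAST. The ranges overlapped, but CAST was higher within each library. The log2 difference was -0.23 (standard error 0.0535, adjusted p = 0.0206 from limma). With replicate 2 left out the adjusted p of limma was 0.0735, and with replicate 4 left out 0.0626, so that the call was lost both times. It was also lost with autosomal sums made equal, where the difference was -0.12 (adjusted p = 0.170 from limma). Its divergent neighbour Hist1h2an had 174, 119, 126 and 180 RPKM on S129 and 161, 116, 126 and 164 RPKM on CAST. S129 was higher in 4 of 4 libraries by a log2 difference of 0.069 (95% interval -0.032 to 0.17, adjusted p = 0.175 from limma), which did not pass the test. It passed with autosomal sums made equal, at 0.17 (adjusted p = 0.0220 from limma), a scaling that moved the median of all genes tested by 0.10. The interval of Hist1h4n overlapped neither that of Hist1h2an nor that of Hist1h2bp, and the differences between genes were not tested.

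H1f0 had 22.7, 24.0, 24.2 and 19.5 RPKM on S129 and 19.9, 20.8, 20.7 and 17.5 RPKM on CAST. S129 was higher in each library, by a log2 difference of 0.19 (standard error 0.0306, adjusted p = 0.00590 from limma). H3f3b had 334, 338, 329 and 291 RPKM on S129 and 356, 358, 353 and 311 RPKM on CAST. Its log2 difference of -0.093 (standard error 0.0284, adjusted p = 0.0436 from limma, CAST higher in 4 of 4 libraries) was small and near the threshold. The call was lost without any one of the replicates 1, 2, 3 and 4 (adjusted p between 0.0864 and 0.140 from limma), where the difference stayed between -0.095 and -0.091. The difference turned to 0.010 with autosomal sums made equal, so no direction is given for H3f3b. H2afy3 had 0.913 ± 0.145 RPKM on S129 and 1.20 ± 0.555 RPKM on CAST (SD, n = 4 each), with S129 higher in 2 of 4 libraries and a difference that did not pass the test (log2 difference -0.29, adjusted p = 0.408 from limma). Without pairing the alleles of a library, in the fit of 2 groups of 4 columns, H1f0 (adjusted p = 0.136 from limma), Hist1h2bp (adjusted p = 0.270 from limma) and H3f3b (adjusted p = 0.392 from limma) were no longer called.

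**Figure D5:**
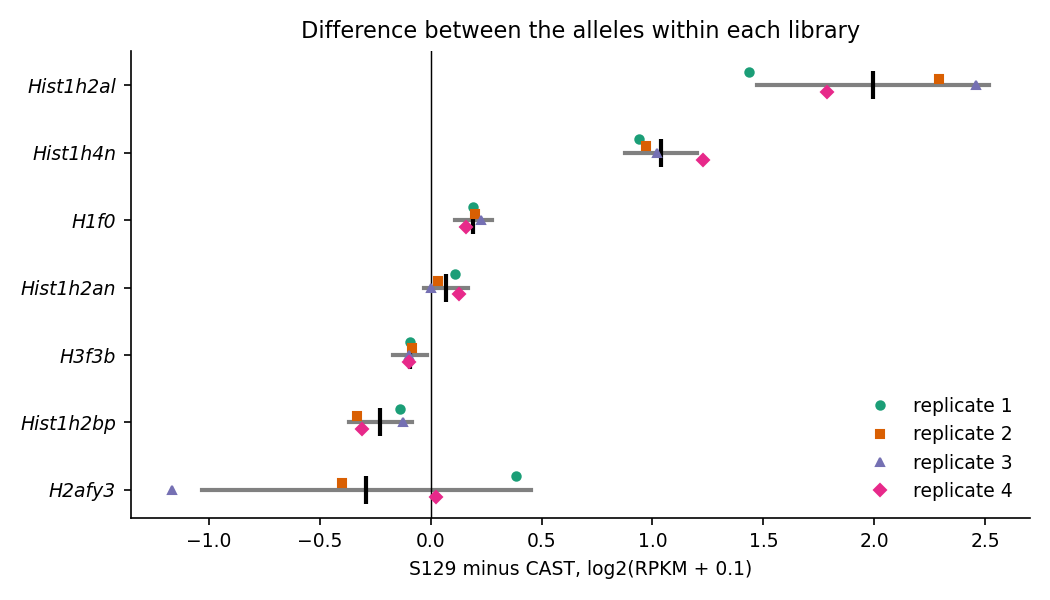
Difference S129 minus CAST in log2(RPKM+0.1) of the 7 histone genes tested, with a symbol for each library, a black mark at the mean and a grey bar for the 95% interval of limma. All 4 libraries of Hist1h2al and Hist1h4n lie to the right of 0, around 1.99 and 1.04, and those of H2afy3 lie on both sides.

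Of 14 genes chosen for the processing of the 3′ end of stem-loop mRNAs, 13 are in the table, and all 13 were above 1 RPKM. Of 13 such genes in the table, with a median of 15.7 RPKM, Cpsf3, the nuclease that cuts the end, had 193 ± 19.8 RPKM (SD, n = 4), Slbp, the stem-loop binding protein, 169 ± 12.8 RPKM and Srrt, which works with the cap-binding complex, 68.1 ± 6.61 RPKM. Npat, the factor that activates histone genes in S phase, had 11.2 ± 0.386 RPKM. Slbp had 170, 183, 172 and 152 RPKM in replicates 1 to 4, and its ratio to the mean in replicate 4, 0.899, was near the median of genes over 1500 bases (0.907). Npat had 10.8 RPKM in replicate 4 and 11.1 to 11.6 RPKM in the others. Lsm10, a U7 snRNP protein, had 46.7 RPKM in replicate 4 and 38.5 to 41.5 RPKM in the others. It was the only gene of this list above its mean in replicate 4, with a ratio of 1.13. The ratios of all other genes of the list in replicate 4 ran from 0.799 to 0.993. The sum of the list was 554 to 654 RPKM.

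Between the alleles, 2 of these 13 genes were called higher on S129 and 4 higher on CAST, beside 31.4% and 31.3% of all genes tested, with a median log2 difference of -0.071 against -0.0034 over all genes tested. The number higher on CAST fell to 2 without replicate 1 and to 1 without replicate 2 or 3. Cstf2, a cleavage factor, is X-linked and had 12.1 RPKM on S129 and 0.0139 RPKM on CAST. Ncbp2, a subunit of the cap-binding complex, was higher on S129 by 0.78 and Eri1, an exonuclease that binds the stem-loop, was higher on CAST, with a difference of -0.31 (adjusted p = 2.7e-04 and 0.00317 from limma). With the median of genes within 10 Mb taken out, these were -0.014 and -0.012 and neither was called. Cpsf3 (log2 difference -0.15, adjusted p = 0.0129 from limma) was called higher on CAST, but turned to 0.0074 with that median taken out. For Npat the log2 difference was -0.12 (adjusted p = 0.0463 from limma). The call was lost without any one of replicates 1 to 4 (adjusted p between 0.0634 and 0.151 from limma), where the difference was between -0.13 and -0.090. Slbp had 176 RPKM on S129 and 162 on CAST and did not pass the test (log2 difference 0.13, adjusted p = 0.196 from limma), and it passed with autosomal sums made equal (adjusted p = 0.0402 from limma).

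Of 26 histone chaperone and exchange genes, 24 had at least 1 RPKM, with a median of 21.7 RPKM. The highest were Npm1, the nucleolar chaperone nucleophosmin, at 1585 ± 100.1 RPKM, Nasp, which holds H3 and H4, at 144 ± 17.7 RPKM, and Nap1l1, a chaperone of H2A and H2B, at 139 ± 10.8 RPKM (SD, n = 4 each). Hjurp, the chaperone of the centromeric histone, was listed at 0 and Asf1b had 0.0424 ± 0.0222 RPKM. Among the 24 genes tested between the alleles, 7 were higher on S129 and 5 on CAST, beside 31.4% and 31.3% of all genes tested, with a median log2 difference of 0.023, and the latter number was 2 without replicate 1 or 2 and 3 without replicate 3 or 4. Npm1 (log2 difference 0.30, adjusted p = 0.00119 from limma) and Nasp (0.19, adjusted p = 0.00924) were higher on S129 in 4 of 4 libraries, and Nap1l1 did not pass the test (-0.084, adjusted p = 0.107). Nasp was no longer called without pairing the alleles (adjusted p = 0.242 from limma). The largest called differences were those of the X-linked genes Atrx, at 41.0 RPKM on S129 and 0.0446 on CAST, and Rbbp7, at 3.11 RPKM on S129 and listed at 0 on CAST. They were followed by Vps72, of the complex that exchanges H2A.Z, at 15.6 RPKM on S129 and 29.5 on CAST (log2 difference -0.92, adjusted p = 1.8e-04 from limma), which was -0.073 and not called with the median of genes within 10 Mb taken out.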

How the data were processed

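The authors filtered ribosomal RNA reads with SortMeRNA, trimmed with Trimmomatic (version 0.40, also in the submitters' processing notes) and aligned with STAR to an mm10 genome masked at SNPs, and SNPsplit divided reads by allele. They deposited RPKM per gene, allele and library, with per-allele averages and log10 values that were not used. The counting program and annotation are not given in the sources used here. Genes were matched to GENCODE M21 by identifier (23995 of 24026). Whole reads (within 0.02 reads) and totals were recovered from the RPKM steps. The length behind H1f0, 2287 bases, was found by search, so its reads are the fewest possible.

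Levels are the mean of both alleles. Alleles were compared with limma (version 3.58.1, R 4.3.3) on log2(RPKM+0.1), a scale on which differences of low values are understated, after a minimum of 1 RPKM over both alleles, and calls have an adjusted p under 0.05. Both alleles are reads of one library, which is the pairing. Over 10906 autosomal genes, deviations of same-library columns correlated at 0.153 to 0.279 and those of other libraries at -0.249 to 0.223. These ranges overlap, so the pairing rests on the replicate numbers in the column names. In the S129 column of replicate 1 the number carries a minus sign, which was ignored. The fit was tested on simulated data. Sequences come from GENCODE M21 and RefSeq. Histone genes and gene lists were chosen with earlier results of these data known. Named genes are the 3 highest per class of Hist genes, all other histone genes, and of each further list Slbp, Npat, the 3 highest and the 3 largest called differences. Other genes named, such as Lsm10, Hjurp and Asf1b, are outside this rule. Alternatives were another pseudocount, no or a higher minimum (5 RPKM), no pairing, equal autosomal sums, the median within 10 Mb taken out, single alleles, medians, exon-union lengths, rescaled libraries and each library left out.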

Additional observations from a re-analysis of the deposited data

Results flagged for a closer look

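Among 47 sets of 4 library values, Dixon's ratio (the gap of the farthest library to its neighbour over the whole range) exceeded the 95% critical value in 4, where chance alone gives about 1 in 20. H3f3b was low in replicate 4, at 301 RPKM against 341 to 348 RPKM in the others, with a ratio of 0.859 for the mean of both alleles and 0.890 for the CAST allele (311 against 353 to 358 RPKM). Protein-coding genes over 1500 bases as a class had a median ratio to their mean of 0.907 in replicate 4, near the 0.901 of H3f3b. The sum of the H3f3, H2af and H1f genes, nearly all of it from H3f3b, was likewise low in replicate 4 with a ratio of 0.879 (320 against 365 to 371 RPKM). The S129 allele of Hist1h2al was high in replicate 3, at 4.57 RPKM against 3.90 to 3.91 RPKM, with a ratio of 0.983, and rests on 23 to 38 reads per library.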

How the results depend on the processing

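The number of histone genes called higher on S129 stayed within 1.5 times of 3 in every alternative. The number higher on CAST was 2, and it was 1 with no minimum level or with the median of genes within 10 Mb taken out, 0 without the replicate block or with autosomal sums made equal, and 0 to 1 with a library left out. Of the 3′ end genes, those higher on S129 numbered 4 with equal autosomal sums and 1 with the 10 Mb median taken out, and those higher on CAST 1 without the block, 1 with equal sums, 2 with the 10 Mb median taken out and 1 to 3 with a library left out. Of the chaperone genes, 11 were higher on S129 with equal sums, and those higher on CAST numbered 3 with no minimum, 2 without the block, 2 with equal sums and 2 to 3 with a library left out. Equal sums raised the share of S129 among all calls from 50.0% to 62.6%. Directions turned for H3f3b (0.010) and Nap1l1 (0.019) with equal sums, and for Cpsf3 (0.0074), Srrt (-0.012), Ncbp2 (-0.014) and Rbbp7 (-1.64, against X-linked neighbours) with the 10 Mb median taken out. H2afy3 ranged from -0.51 to 0.0029 with a library left out. With exon-union lengths the sum of the H3f3, H2af and H1f genes was 307 RPKM in place of 356. Its CV was 10.1% with libraries rescaled to one sum and between 0.848% and 8.05% with a library left out.

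Low read numbers limit Hist1h2al, H2afy3 and H3f3a, and sequence shared with other genes limits Hist1h4n and Hist1h2an. One cell line in one condition gives no comparison of conditions, and with 4 libraries no correlation between genes was computed.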
